A study of Mus musculus with 7 samples.

Results

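Aldehyde dehydrogenases are NAD(P)+-dependent enzymes that oxidise aldehydes to carboxylic acids. The 10 genes described here, Aldh2, Aldh1b1, Aldh1l1, Aldh3a1, Aldh3a2, Aldh4a1, Aldh5a1, Aldh6a1, Aldh7a1 and Aldh9a1, are members of the family that do not make retinoic acid from retinal as their main task. They were taken by symbol, and all 10 of 10 were found among the 18194 genes measured. Where a gene had several probe sets, the one that stands for it was selected on its mean signal, the highest over all 7 arrays. RNA came from whole testis of mice 15 to 20 weeks of age, on 3 arrays from Phf13 knockouts and 4 arrays from wild types. Phf13 encodes a chromatin-binding PHD finger protein. The labels give genotype as the only difference between the groups, name no strain and no way in which Phf13 was inactivated, and do not tell whether each array had its own animal. The p-values therefore cover the spread between arrays, part of which may be technical. The gene names were chosen by hand with results of this same comparison already known, so the differences and p-values below describe them and are not independent support for their direction.

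The enzymes share a fold and a catalytic cysteine but sit in different pathways. Aldh2 and Aldh1b1 are mitochondrial enzymes that oxidise acetaldehyde, Aldh3a1 and Aldh3a2 act on aldehydes from lipids, and Aldh1l1 oxidises 10-formyltetrahydrofolate in one-carbon metabolism. Aldh4a1, Aldh5a1, Aldh6a1, Aldh7a1 and Aldh9a1 each complete a step of amino acid, GABA, polyamine or carnitine metabolism. Testis holds many cell types, and enzymes of this kind are found in its somatic cells as well as in germ cells.

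Signals are log2 values of the authors' deposited table, whose array medians lay between 5.01 and 5.08. A difference is knockout minus wild type on that scale, with the standard error (SE) of a limma fit over all genes, and p-values carry Benjamini-Hochberg adjustment over all of them. Rose and fell are used only for an adjusted p under 0.05. Phf13 itself was lower by 2.78 on the log2 scale (6.88-fold) in the knockout arrays. The wild type 3 and knockout 2 arrays had the highest mean signals of 6 epididymis genes (5.13 and 5.77, against 3.88 to 4.19 in the other 5 arrays), so the counts are also given without both, a choice made after seeing the data. Arrays were also compared within 3 groups whose titles begin with the same 4 digits, a number of unstated meaning. The first holds knockout 1 and wild type 1, the second holds knockout 2 beside wild type 2 and 3, and the third holds knockout 3 and wild type 4.

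Of the 10 genes, 4 rose in knockout testis, 0 fell and 6 did not pass the threshold. Over all genes, 16.1% passed, 9.07% as rises and 7.05% as falls. The 4 were Aldh1l1, Aldh2, Aldh6a1 and Aldh7a1. At an unadjusted p under 0.05 there were 7, all higher in knockout, where 33.8% of all genes had such a p and 15.4% were higher with it. For 7 genes every knockout array lay above every wild type array. Over all genes the arrays of the groups were separate for 28.0%, with 12.8% higher in knockout and 15.2% lower. The median difference of the 10 was 0.46, beside −0.05 over all genes. Because the list was drawn up with this comparison in view, nothing is read from these counts. In whole testis a larger share of a cell type and more RNA per cell cannot be told apart.

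The count of 4 rises depended on single arrays. Leaving out knockout 1 gave 1 (Aldh2), where 5.47% of all genes passed, and leaving out wild type 1 gave 2 (Aldh2 and Aldh5a1), where 4.07% passed. Leaving out knockout 2 gave 3 (Aldh2, Aldh1l1 and Aldh3a1; 13.7% of all genes), as did leaving out wild type 4 (Aldh2, Aldh1l1 and Aldh6a1; 12.4%). Leaving out knockout 3 gave 0 by limma, with 0.962% of all genes past the threshold. In that fit 6 of the 10 had an unadjusted p under 0.05. The share of all genes with such a p was not computed for it, and was 33.8% with all 7 arrays. The count stayed at 4 when wild type 2 or 3 was left out, with 7.50% and 14.1% of all genes past the threshold. Without both knockout 2 and wild type 3 it was 2, Aldh2 and Aldh1l1, with 9.03% of all genes. In those 5 arrays the groups were separate for 8 members, against 45.2% of all genes, and 6 members had an unadjusted p under 0.05, against 30.8%. Without both knockout 3 and wild type 4 it was 0, with 0.0220% of all genes past the threshold. There 5 of the 10 had an unadjusted p under 0.05, and the share of all genes with such a p was not computed. The differences themselves moved less, as given for each gene below.

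**Figure D1:**
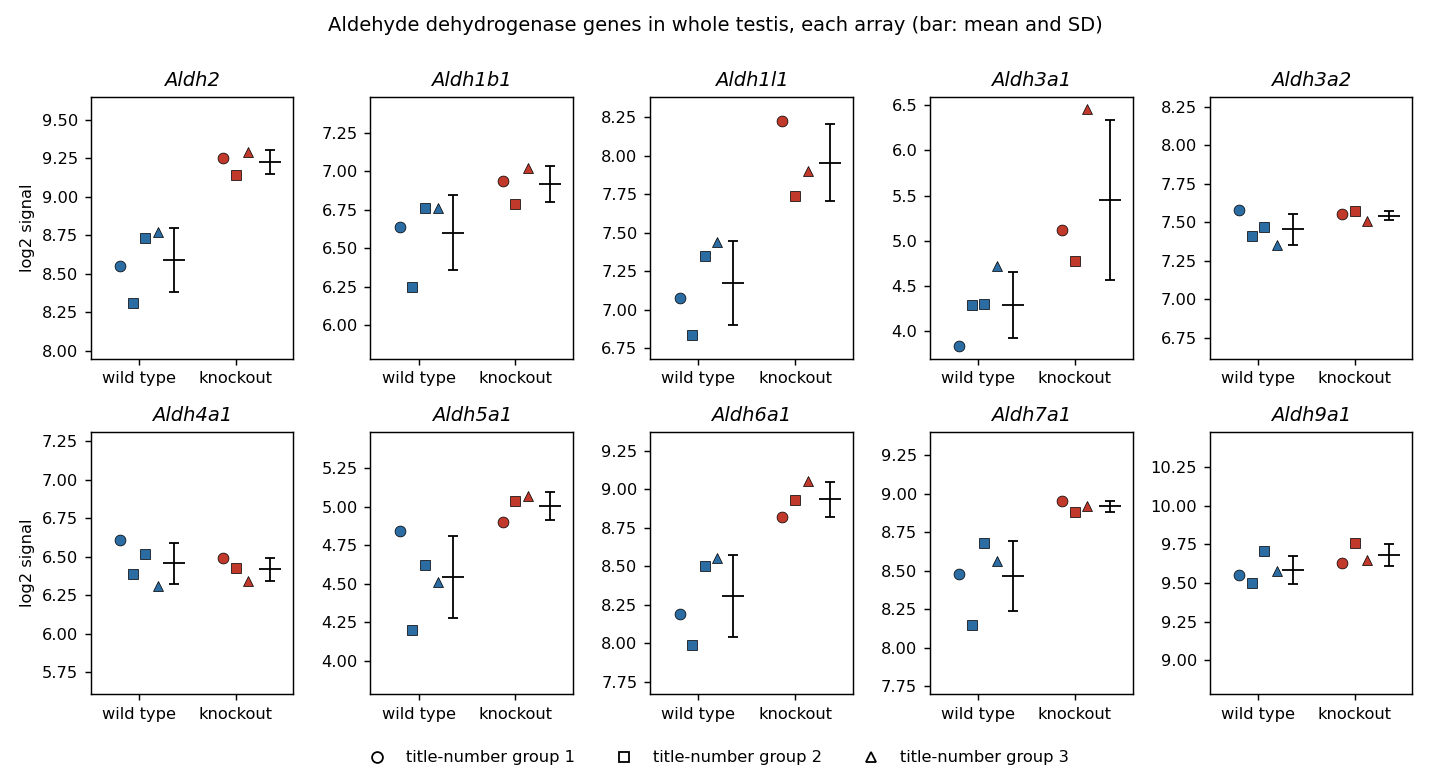
Log2 signal of each of the 10 genes on every array, wild type in blue and knockout in red, with marker shapes for the 3 title-number groups and bars for the mean and SD; each panel has its own vertical range, wider for Aldh3a1. For Aldh2, Aldh1b1, Aldh1l1, Aldh3a1, Aldh5a1, Aldh6a1 and Aldh7a1 every knockout array lies above every wild type array, while Aldh3a2, Aldh4a1 and Aldh9a1 overlap.

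Aldh2, the mitochondrial enzyme known for clearing acetaldehyde made from ethanol, lies on chromosome 5. Its signals were 9.25, 9.14 and 9.29 in knockout arrays 1 to 3 and 8.55, 8.31, 8.73 and 8.77 in wild type arrays 1 to 4. The lowest knockout array lay 0.37 above the highest wild type array, and the knockout arrays were closer together (9.23 ± 0.08, SD, n = 3) than the wild type arrays (8.59 ± 0.21, SD, n = 4). Aldh2 rose by 0.64 (SE 0.11, limma adjusted p = 0.0140), 1.55-fold. Within the 3 title-number groups the difference was 0.70, 0.62 and 0.52. It stayed past the threshold in 6 of 7 fits with 1 array left out, the exception being without knockout 3 (0.61, limma adjusted p = 0.0580). No other member passed the threshold in as many of those 7 fits.

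Aldh1b1, a mitochondrial relative of Aldh2 that also oxidises acetaldehyde, lies on chromosome 4. Its signals were 6.94, 6.79 and 7.02 in knockout and 6.64, 6.25, 6.76 and 6.76 in wild type. The groups were separated by 0.03 only, and wild type 2 lay well under the other wild type arrays. The difference was 0.31 (SE 0.13, limma adjusted p = 0.129) and did not pass, with a 95% confidence interval of 0.02 to 0.61. Without wild type 2 it was 0.20. It was, by title-number group, 0.30, 0.29 and 0.26.

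Aldh1l1, the cytosolic enzyme that oxidises 10-formyltetrahydrofolate to tetrahydrofolate, lies on chromosome 6 and had the largest difference among the 4 that rose. Its signals were 8.23, 7.74 and 7.90 in knockout and 7.08, 6.84, 7.35 and 7.44 in wild type. All 3 knockout arrays stood above all 4 wild type arrays, with knockout 1 highest. It rose by 0.78 (SE 0.16, limma adjusted p = 0.0202), 1.72-fold. Within the title-number groups the difference was 1.15, 0.65 and 0.46, where single arrays had an SD of 0.25 in knockout and 0.27 in wild type. It stayed past the threshold in 4 of 7 fits with 1 array left out; the call was lost without knockout 1 (0.64), wild type 1 (0.75) or knockout 3 (0.81), with adjusted p-values of 0.0632 to 0.0660.

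Aldh6a1, the methylmalonate semialdehyde dehydrogenase of valine breakdown, lies on chromosome 12. Its signals were 8.82, 8.93 and 9.05 in knockout and 8.19, 7.99, 8.50 and 8.55 in wild type. The groups lay 0.27 apart. Aldh6a1 rose by 0.63 (SE 0.14, limma adjusted p = 0.0232), 1.54-fold, and by similar amounts within the title-number groups (0.63, 0.69 and 0.50). It stayed past the threshold in 3 of 7 fits with 1 array left out; the call was lost without knockout 1, 2 or 3 or wild type 1, with differences of 0.57 to 0.68 and adjusted p-values of 0.0521 to 0.0840.

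Aldh7a1, which oxidises the semialdehyde formed in lysine breakdown and also betaine aldehyde, lies on chromosome 18. Its signals were 8.95, 8.88 and 8.92 in knockout and 8.48, 8.15, 8.68 and 8.56 in wild type. The knockout arrays lay within 0.07 of each other while the wild type arrays spanned 0.53. Aldh7a1 rose by 0.45 (SE 0.12, limma adjusted p = 0.0359), 1.37-fold, the smallest of the 4 rises. Within the title-number groups the difference was 0.47, 0.47 and 0.36. With these groups as a block the adjusted p was 0.0728, and it stayed past the threshold in 2 of 7 fits with 1 array left out, those without wild type 2 (0.34) and without wild type 3 (0.52).

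**Figure D2:**
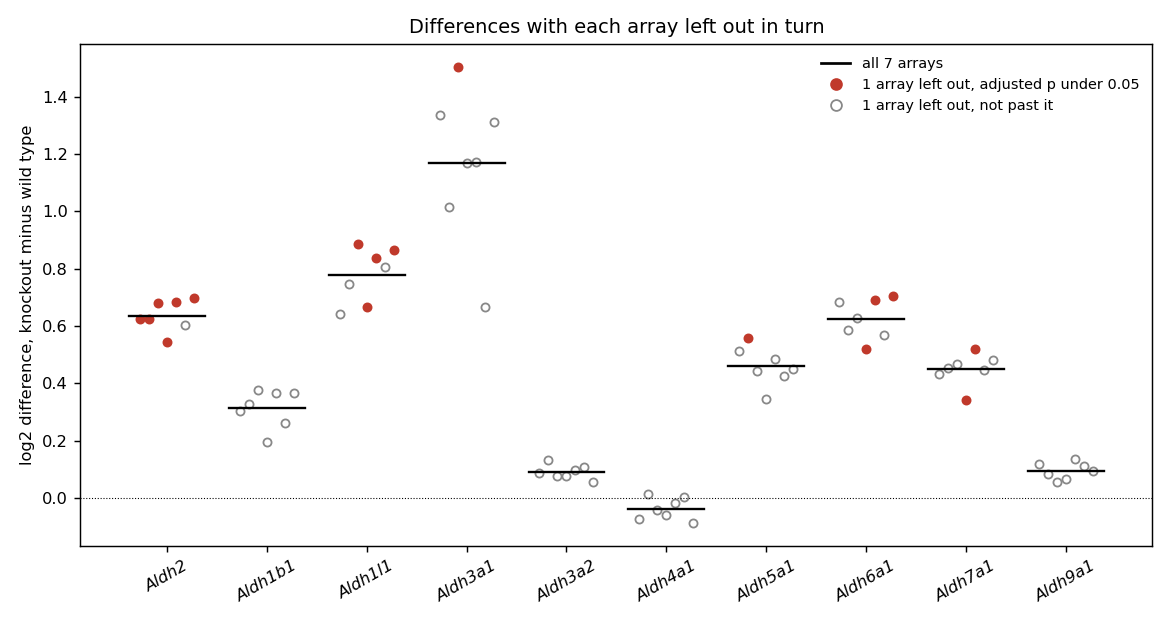
Log2 difference, knockout minus wild type, for each of the 10 genes with all 7 arrays (black line) and with each array left out in turn (points, filled where the adjusted p stayed under 0.05). The 7 points of Aldh2 run from 0.54 to 0.70, and those of Aldh3a1 from 0.67 to 1.51.

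Aldh3a1, a cytosolic enzyme that oxidises medium-chain and aromatic aldehydes and is abundant in cornea, lies on chromosome 11. Its signals were 5.12, 4.78 and 6.46 in knockout and 3.83, 4.29, 4.30 and 4.72 in wild type. Knockout 3 stood far above the other arrays, while knockout 2 exceeded wild type 4 by only 0.06. The difference of 1.17 (SE 0.37, limma adjusted p = 0.0663) was larger than for any other of the 10 genes but did not pass. It was 0.67 without knockout 3, and 1.29, 0.49 and 1.74 within the title-number groups. It passed with these groups as a block (1.10, limma adjusted p = 0.0314) and without knockout 2 (1.51, adjusted p = 0.0437). All 4 wild type signals lay under the array medians, and whether they exceed background is not known, so the size is uncertain.

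Aldh3a2, the fatty aldehyde dehydrogenase of the endoplasmic reticulum whose human counterpart is mutated in Sjögren-Larsson syndrome, is the neighbour of Aldh3a1 on chromosome 11, with 0 other measured genes between them in the RefSeq order. Its signals were 7.55, 7.57 and 7.51 in knockout and 7.58, 7.41, 7.47 and 7.35 in wild type. Wild type 1 was the highest of all 7 arrays, so the groups overlapped. The difference was 0.09 (SE 0.07, limma adjusted p = 0.387) and its 95% confidence interval ran from −0.07 to 0.25. By title-number group it was −0.03, 0.13 and 0.16.

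Aldh4a1, the mitochondrial enzyme that finishes the oxidation of proline to glutamate, was the only one of the 10 with a negative difference. Its signals were 6.49, 6.43 and 6.34 in knockout and 6.61, 6.39, 6.52 and 6.31 in wild type, fully overlapping. The difference was −0.04 (SE 0.08, limma adjusted p = 0.783), with a 95% confidence interval of −0.23 to 0.16, and its sign turned without wild type 1 (0.01) and without knockout 3 (0.0025). It lies on chromosome 4, as Phf13 does, with 121 measured genes between them. Of its 10 nearest measured neighbours, 5 on each side, 1 passed the threshold: Arhgef10l, which encodes a guanine nucleotide exchange factor and was named after its value was seen, fell by 0.26.

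Aldh5a1, the succinic semialdehyde dehydrogenase that ends the GABA shunt, lies on chromosome 13. Its signals were 4.90, 5.04 and 5.07 in knockout and 4.84, 4.20, 4.62 and 4.51 in wild type. Knockout 1 exceeded wild type 1 by 0.06, and the difference within the other title-number groups was 0.63 and 0.56. The difference was 0.46 (SE 0.14) and stopped just short of the threshold (limma adjusted p = 0.0527). All 4 wild type signals lay under the array medians here too. With limma's trend and robust settings the same difference passed (adjusted p = 0.0416), as it did without wild type 1 (0.56, adjusted p = 0.0490).

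Aldh9a1, which oxidises trimethylaminobutyraldehyde in carnitine synthesis and aminobutyraldehyde from polyamines, lies on chromosome 1. Its signals were 9.63, 9.76 and 9.65 in knockout and 9.55, 9.50, 9.71 and 9.58 in wild type. Wild type 3 lay above 2 of the 3 knockout arrays. The difference was 0.10 (SE 0.07, limma adjusted p = 0.376), with a 95% confidence interval of −0.07 to 0.26. Aldh3a2, Aldh4a1 and Aldh9a1 were thus the 3 genes whose intervals reached 0, and each upper bound was under the 0.38 that bounds the interval of Aldh2 from below.

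Wild type 2 was the lowest wild type array for 7 of the 10 genes and for 6 of the 7 whose groups did not overlap, and it was the highest for 0. Over all genes it was the lowest wild type array, ties included, for 35.2%. Wild type 4 was the highest wild type array for Aldh2, Aldh1l1, Aldh3a1 and Aldh6a1 and shared the top value with wild type 3 for Aldh1b1. Among knockout arrays, knockout 3 was highest for 5 genes and knockout 2 lowest for 5. The spread was larger in wild type than in knockout for 9 of the 10 genes, Aldh3a1 being the exception. Wild type 2 also had the lowest mean signal of the wild type arrays for the Sertoli markers (8.24, against 8.40 to 8.59) and the Leydig markers (8.19, against 8.47 to 8.70). It was likewise lowest for the peritubular myoid (7.357), macrophage (6.533), endothelial (4.826) and fibroblast and matrix (6.399) lists. The same held for the spermatogonium (7.088) and spermatocyte (9.557) lists, while for the round spermatid list it was highest (10.83).

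Several lists of somatic cell markers held genes that rose, though the endothelial list held 0. For comparison, 9.07% of all genes rose and 7.05% fell. Of 16 measured Sertoli cell markers 14 rose and 0 fell (median difference 0.62), of 9 Leydig cell markers 6 rose and 0 fell (0.90), of 9 peritubular myoid markers 4 rose (0.38), of 12 macrophage markers 6 rose (0.51) and of 7 fibroblast and matrix genes 5 rose (0.66). The summed linear signal of the Sertoli list was 22300 to 24100 in knockout and 13400 to 17200 in wild type, and that of the Leydig list 8550 to 10700 and 4470 to 6390. For the round spermatid list it was 20200 to 20500 and 22000 to 23900, with 3 of 11 genes falling, and for the elongating spermatid list 78200 to 79700 and 80700 to 85600, also with 3 of 11. It was 3310 to 3570 and 2370 to 2700 for the peritubular myoid list, and 1750 to 2010 and 807 to 1170 for the fibroblast and matrix list. The groups overlapped in the sum of the macrophage list (3300 to 4100 and 3110 to 3350) and of the spermatocyte list (18500 to 20400 and 19600 to 20200). In the mean log2 signal the macrophage list did not overlap (6.896 to 7.528 in knockout and 6.533 to 6.788 in wild type). The spermatocyte list overlapped there too (9.376 to 9.562 and 9.557 to 9.622). Of 12 spermatocyte genes 3 fell, and of 4 red blood cell genes 1 fell. Of 6 epididymis and 4 fat cell genes, 0 passed by limma and 0 had an unadjusted p under 0.05. Of 9 spermatogonium and 9 endothelial genes, 0 passed in either direction by limma. An unadjusted p under 0.05 was found for 0 of the endothelial genes and 2 of the spermatogonium genes. These were Dmrtb1 (−0.21) and Kit (0.48), which differ in sign. All 12 spermatocyte, 11 round spermatid and 11 elongating spermatid markers had mean signals above the array medians, so the defining germ cell markers of testis were present. Without knockout 2 and wild type 3, 14 Sertoli, 7 Leydig, 3 peritubular myoid, 6 macrophage and 5 fibroblast and matrix genes rose, as did 1 spermatogonium gene, and 3 spermatocyte, 1 round spermatid and 0 elongating spermatid genes fell by limma, where 3 of the latter had an unadjusted p under 0.05. The part these cells had in the members' differences was not tested.

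Probe sets other than the main one measure other stretches of a transcript. The 10 genes had 18 probe sets with 1 symbol, 8 of them not used above, and 0 of the 8 passed in a limma fit over all 34958 such probe sets, of which 11.4% passed. At an unadjusted p under 0.05 there were 2 of the 8, both of Aldh2, against 29.7% of all such probe sets. For Aldh2 the 4 others had differences of 0.16, 0.25, 0.37 and 0.22, all positive, at wild type means of 4.27 to 5.64. The second probe set of Aldh1l1 had a difference of −0.05 (SE 0.11) at a wild type mean of 4.54, and the 2 others of Aldh7a1 had −0.18 and 0.02 at 3.18 and 4.26. These 3 did not show the rise of their main probe sets. They lay below the array medians, and whether they exceed background is not known. With the probe sets of each gene averaged, the difference was 0.36 for Aldh1l1 (limma adjusted p = 0.0711) and 0.10 for Aldh7a1 (adjusted p = 0.354), and neither passed, while Aldh2 (0.33) and Aldh6a1 did. The second probe set of Aldh9a1, well above the array medians at 8.58, had a difference of 0.06 (SE 0.07), close to the 0.10 of the main one.

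**Figure D3:**
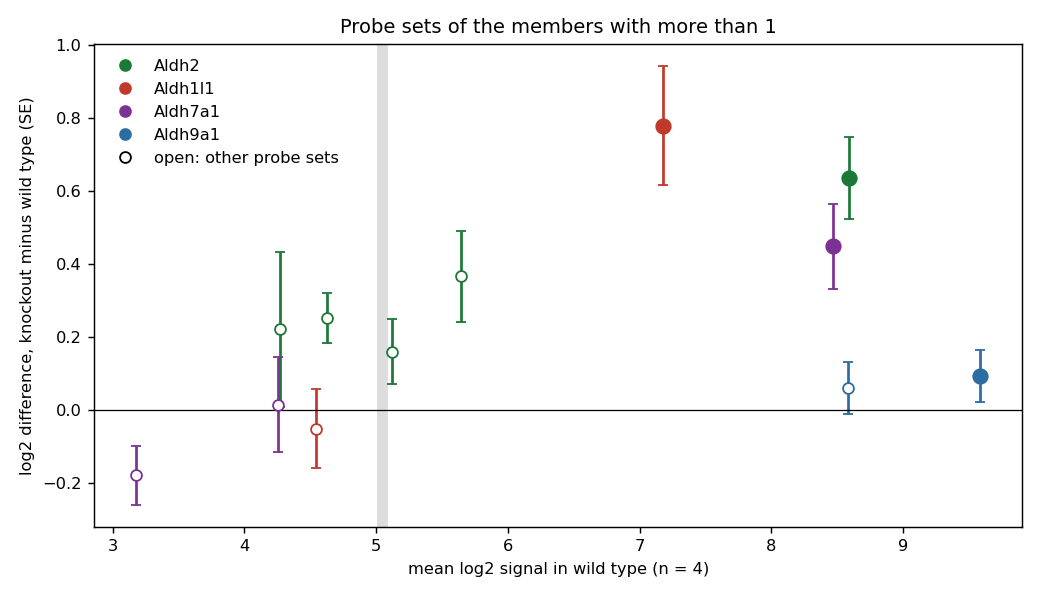
Log2 difference, knockout minus wild type (bars: SE), against the wild type mean log2 signal for every probe set of the 4 genes that have more than 1; filled points are the main probe sets and the grey band marks the range of array medians, 5.01 to 5.08. Both Aldh9a1 probe sets lie near 0 at high signal, and the open points of Aldh1l1 and Aldh7a1 lie left of the band.

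Stretches of 250 bases upstream of a RefSeq transcript start (GRCm38.p6) were used for 7 of the 10 genes, all but Aldh2, Aldh3a1 and Aldh7a1. They are shown for Aldh1l1 and Aldh6a1, which rose, and for Aldh4a1, whose groups overlapped, so that the upstream sequence of genes with and without a difference can be set side by side. Each is written 5′ to 3′ on the gene's own strand, and capitals mark the CCAAT box, read as CCAAT or, on the other strand, ATTGG.
Aldh1l1, chr6:90550543-90550792, plus strand: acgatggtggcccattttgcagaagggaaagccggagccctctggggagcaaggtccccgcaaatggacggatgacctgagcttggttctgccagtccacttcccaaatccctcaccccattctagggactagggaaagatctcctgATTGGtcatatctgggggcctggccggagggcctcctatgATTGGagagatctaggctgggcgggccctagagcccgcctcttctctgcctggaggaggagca
Aldh6a1, chr12:84451025-84451274, minus strand: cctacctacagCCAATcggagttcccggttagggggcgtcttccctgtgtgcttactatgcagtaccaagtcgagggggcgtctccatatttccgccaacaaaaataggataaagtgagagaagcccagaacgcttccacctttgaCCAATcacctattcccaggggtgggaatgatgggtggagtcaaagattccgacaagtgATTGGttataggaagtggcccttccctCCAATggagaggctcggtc
Aldh4a1, chr4:139622644-139622893, plus strand: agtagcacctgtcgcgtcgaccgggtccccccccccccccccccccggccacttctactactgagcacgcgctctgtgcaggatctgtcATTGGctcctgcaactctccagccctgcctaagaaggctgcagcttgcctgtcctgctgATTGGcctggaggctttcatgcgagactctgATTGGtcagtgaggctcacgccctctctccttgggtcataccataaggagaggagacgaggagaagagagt
The stretch of Aldh1l1 held 2 CCAAT boxes, that of Aldh6a1 4 and that of Aldh4a1 3. Of 32851 upstream stretches of the same length over all genes, 33.8% held at least 1, 10.1% 2 or more and 2.79% 3 or more. Those of Aldh3a2, Aldh5a1 and Aldh9a1 held 1 each and that of Aldh1b1 held 0. A second start of Aldh6a1 held 1.

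Other short motifs were counted on both strands. A GC box (GGGCGG, in 32.7% of all stretches) was present once in Aldh1l1, Aldh1b1 and Aldh3a2. The nuclear receptor half-site AGGTCA (14.0% of all stretches) was present once in Aldh1l1, spelled tgacct there, and once at the second start of Aldh6a1. An E-box (CACGTG, 6.02%) was present in Aldh3a2, and the antioxidant response core TGACNNNGC (10.2%) in Aldh9a1. TATAAA (12.4%) was present in 0 of the 8 stretches examined. These are letter matches and not binding sites.

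The rest of the family was set beside the 10 genes. Of the 4 Aldh1a genes, a group that includes the enzymes that make retinoic acid, 2 passed the threshold. Aldh1a1 rose by 0.85 (SE 0.09, limma adjusted p = 0.00832) and its close relative Aldh1a7 by 0.90 (SE 0.17). Aldh1a3 had a difference of 0.65 (limma adjusted p = 0.0518) and Aldh1a2 of −0.24 (adjusted p = 0.129). Of 6 further members, 0 passed by limma in either direction. An unadjusted p under 0.05, which 33.8% of all genes had, was found for 4 of them. The 4 were Aldh1l2 (0.17), the mitochondrial counterpart of Aldh1l1, Aldh3b1 (−0.26), Aldh3b2 (−0.23) and Aldh18a1. The wild type mean of Aldh1l2 (3.61) lay under the array medians. Aldh18a1, which makes the proline precursor and so works against Aldh4a1, had a difference of 0.33 (limma adjusted p = 0.0531) on a probe set of a type that can share sequence with other transcripts. Aldh8a1 (−0.20) and Aldh16a1 (−0.26) were likewise below 0.

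**Figure D4:**
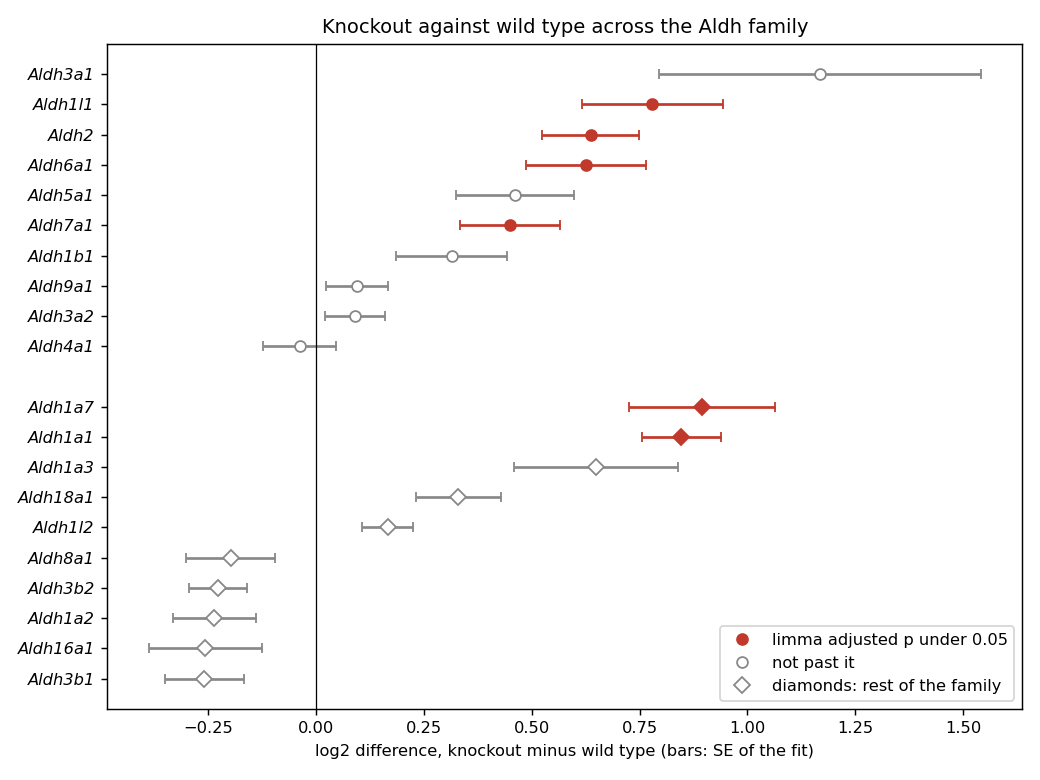
Log2 difference, knockout minus wild type, with the SE of the fit for the 10 genes (circles, upper block) and for the 10 other family members (diamonds, lower block); filled symbols passed an adjusted p of 0.05. Among circles the 4 filled symbols lie between 0.45 and 0.78, and among diamonds only Aldh1a1 and Aldh1a7 are filled.

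The pathways around each enzyme were followed through lists of genes. For comparison, 16.1% of all genes passed the threshold, 9.07% as rises and 7.05% as falls. Without knockout 2 and wild type 3, 9.03% passed and 30.8% had an unadjusted p under 0.05. For acetaldehyde, the substrate of Aldh2 and Aldh1b1, 4 of 10 measured genes of alcohol oxidation rose and 0 fell (median 0.33). Adh5, the class III alcohol dehydrogenase that oxidises the glutathione adduct of formaldehyde, rose by 0.87 (SE 0.14, limma adjusted p = 0.0122), catalase (Cat) by 0.75 and the aldehyde reductase gene Akr1a1 by 0.42. Of 13 genes that reduce or conjugate aldehydes, 4 rose and 1 fell (0.38). Among them the glutathione transferase gene Gsta4, which conjugates hydroxynonenal, rose by 0.87, and the aldo-keto reductase genes Akr1b8 and Akr1b10 rose by 0.81 and 0.69. The 1 that fell was Dhrs4 (by 0.45), a carbonyl reductase gene named after its value was seen.

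In one-carbon folate metabolism, where Aldh1l1 acts, 2 of 16 genes rose and 0 fell (median 0.11). Folr1, which encodes a folate receptor, rose by 0.66 (SE 0.15) and Mthfd1l, the mitochondrial formyltetrahydrofolate synthetase gene, by 0.54 (SE 0.11). The share of this list past the threshold, 2 of 16, was near the 16.1% over all genes.

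Branched-chain amino acid breakdown, the pathway of Aldh6a1, had 11 of 21 genes that rose and 0 that fell (median 0.30). Dbt, the E2 subunit of the branched-chain ketoacid dehydrogenase, rose by 0.74 (SE 0.15), Echs1, the short-chain enoyl-CoA hydratase, by 0.61 (SE 0.12) and Acadsb, a branched-chain acyl-CoA dehydrogenase gene, by 0.47 (SE 0.08). The probe set of Acadsb is of a type that can share sequence with other transcripts. Without knockout 2 and wild type 3 the list had 2 genes that rose, 13 with an unadjusted p under 0.05 and a median of 0.38. In lysine and choline breakdown, with Aldh7a1, 3 of 12 rose and 0 fell (−0.03): the methyltransferase gene Bhmt by 1.08, Aass, which starts lysine breakdown, by 0.72 and Dhtkd1 by 0.47. Without knockout 2 and wild type 3, 1 rose and 1 fell. The wild type means of Aass (4.535) and Dhtkd1 (4.448) lay under the array medians. Bhmt stood at 11.21 in wild type 4 and at 10.12 to 10.36 in the other wild type arrays.

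Around Aldh4a1, whose own groups overlapped, 4 of 9 genes of proline and glutamate metabolism rose and 0 fell (median 0.23). They included the ornithine aminotransferase gene Oat (0.53), the glutamate dehydrogenase gene Glud1 (0.43) and P4ha1 (0.44), which hydroxylates proline in collagen. Of 9 genes around the GABA shunt of Aldh5a1, 2 rose and 1 fell (−0.04): the GABA transaminase gene Abat rose by 0.59, Suclg2 by 0.54, and Gad2, which makes GABA and had a wild type signal near the array medians (5.06), fell by 0.33. The probe set of Suclg2 is of a type that can share sequence with other transcripts. Of 13 carnitine and polyamine genes around Aldh9a1, 2 rose and 0 fell (0.18), a share near the 16.1% of all genes past the threshold. The 2 were the monoamine oxidase gene Maob (by 0.72) and the spermine oxidase gene Smox (by 0.60). The wild type mean of Maob (4.99) lay just under the array medians. Of 13 fatty aldehyde genes around Aldh3a2, 2 rose and 2 fell (0.15): Acsl4 and the sphingosine phosphate lyase gene Sgpl1 rose by 0.87 and 0.57, and Hacl1 was 1 of the 2 that fell, by 0.31. The other was Far1 (by 0.32), named after its value was seen. Without knockout 2 and wild type 3, 2 rose and 1 fell among the fatty aldehyde genes and 2 rose and 0 fell by limma around the GABA shunt, where 3 had an unadjusted p under 0.05. In those 5 arrays 3 genes of alcohol oxidation rose, 3 that reduce or conjugate aldehydes rose and 1 fell, and 2 of the folate list, 3 of the proline and glutamate list and 3 of the carnitine and polyamine list rose.

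**Figure D5:**
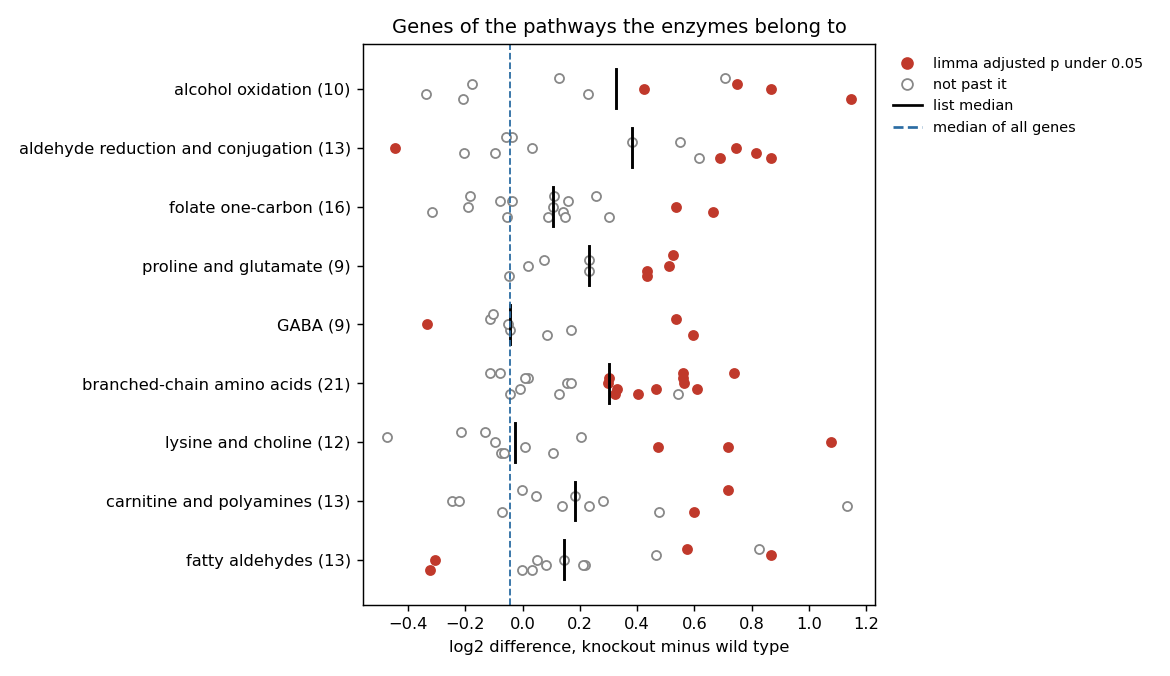
Log2 difference, knockout minus wild type, of each measured gene in 9 pathway lists, with the number measured in brackets; filled points passed an adjusted p of 0.05, black bars are list medians and the dashed line is the median of all genes, −0.05. List medians run from −0.04 for GABA to 0.38 for aldehyde reduction and conjugation, and the branched-chain list has 11 filled points of 21.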

How the data were processed

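RNA of whole testis was prepared with Trizol, and 2 ug went into biotinylated cRNA for Affymetrix arrays, per the labels' protocols. The authors deposited log2 signals for 45101 probe sets and 7 arrays. The submitters' processing notes name Affymetrix Expression Console 1.4.1; summarisation, background correction and normalization are not given in the sources used here. The log2 scale was read from the range, 1.59 to 13.92. No normalization was added, and no detection calls were used. Arrays have no read depth, and their number limits the precision (median SE of a difference 0.0843).

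Probe sets were named from the platform annotation: 34958 had 1 symbol and were kept, 932 had several and 9211 none. Knockout and wild type were compared over 18194 genes by two-sided limma tests (version 3.58.1 under R 4.3.3; lmFit, then eBayes; threshold 0.05). The fit was run on simulated data with independent noise on each array. That run does not cover effects shared by arrays of one title-number group. Genes were named by a rule that took the 10 members, the rest of the family, the up to 3 genes of smallest p past the threshold in each pathway list, and up to 2 per marker list; others named are marked. The members, lists and alternatives were chosen with earlier results of these data known. Chromosomes and gene order came from RefSeq GRCm38.p6; the array files name no assembly. Alternatives were another normalization or centring, leaving out dim genes, averaging probe sets, trend and robust settings, array weights, blocks, and leaving out arrays. A floor for linear values did not apply. No pair of arrays shared more than 9.82% of its values, so none was counted as a duplicate. As a check on the title-number groups, deviations of the arrays from their genotype's means were correlated across genes. Knockout and wild type arrays of one such group correlated at 0.103 to 0.319, and those of different groups at 0.0227 or less. A fit with these groups as a block is therefore quoted where it changes the call of a member. Calls of genes on the family, pathway and marker lists were not examined in that fit.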

Additional observations from a re-analysis of the deposited data

How the results depend on the processing

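Directions held better than calls. Aldh2, Aldh1b1, Aldh1l1, Aldh3a1, Aldh3a2, Aldh5a1, Aldh6a1, Aldh7a1 and Aldh9a1 kept a positive difference in every alternative fit; Aldh4a1, near 0, ran from −0.087 to 0.013 with 1 array left out. For the 7 genes whose groups were separate this is fixed when arrays are only left out. The 4 rises of the main result were the same 4 genes with quantile normalization, median centring, array weights and without the dimmest 50% of genes, which removes Aldh3a1 and Aldh5a1 and leaves 8 members tested. Of all genes tested, 16.6%, 17.7%, 16.6% and 35.9% passed in these 4 settings. With trend and robust settings Aldh5a1 joined them (18.9% of all genes). With the mean of all probe sets 2 rose (15.0%). With 1 array left out 0 to 4 members rose. Over all genes 96 to 1524 were then higher and 79 to 1210 lower. Without knockout 3 and wild type 4, 0 members rose, and 1 gene was higher and 3 lower over all genes. Without knockout 2 and wild type 3, chosen after seeing the data, 2 rose, and 964 genes were higher and 679 lower. These settings have fewer arrays; the cause beyond that was not tested. Of the genes on the pathway and family lists, 8 fell with median centring and 9 without the dimmest 50% of genes, against 4 in the main result; the rises there and with quantile normalization were 32 to 36, against 36, and 22 without knockout 2 and wild type 3.

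With the replicate number as a block the members that rose were 6, adding Aldh1b1 and Aldh3a1, and over all genes 1634 were higher and 660 lower (12.6% in all). Wild type 4 is the only array of its number, so that fit takes it out of the comparison. Its differences were those found without that array, such as 0.3667 for Aldh1b1 and 1.313 for Aldh3a1. Deviations of same-numbered arrays correlated at 0.182, 0.103 and −0.143, and knockout 3 correlated best with wild type 4, so the numbers were not taken to pair the samples. With title-number groups as a block 4 members rose, Aldh3a1 taking the place of Aldh7a1, with 12.7% of all genes past the threshold.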
